A study of Mus musculus with 15 samples.

Results

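Mammary epithelial cells carrying 3 changes at once, p53 deletion, Rb deletion and MYC overexpression (p53- Rb- Myc+), were compared with cells in which p53 alone had been deleted (p53-). The comparison was defined by the sample titles and used the 3 p53- Rb- Myc+ arrays and the 3 p53- arrays, 6 of the 15 arrays of the series. Both groups therefore lacked p53, and the contrast held the Rb deletion and MYC together. The cells came from 8-week-old female mice and were kept in subculture with serum, EGF, insulin, cholera toxin and hydrocortisone. Cre recombinase delivered by an adenovirus made the deletions, a retrovirus delivered MYC, and RNA was taken while the cultures were proliferating. The species of the MYC transgene, any control virus given to p53- cultures, and the origin of a group's arrays (separate mice, cultures or aliquots) were not given in the sources used here. Because of that the p-values reflect only how far these arrays spread, which may be technical in part, and an effect of the retrovirus cannot be told apart from one of MYC. The other arrays of the series, 3 p53- Myc+, 3 p53- Rb- and 3 wild type (WT), entered the same fit and show where either change stood alone.

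Rb binds E2F transcription factors and holds back the genes that start DNA replication, and its loss frees E2F. MYC pairs with MAX on the E-box CACGTG and is known to raise genes of ribosome assembly, nucleotide synthesis and metabolism. Mammary epithelium has a luminal layer with keratins 8 and 18 and a basal layer with keratins 5 and 14. Both layers are held together by E-cadherin, desmosomes and tight junctions. In epithelial-mesenchymal transition (EMT), factors of the ZEB, SNAIL and TWIST families are known to repress such epithelial genes. Those of the ZEB and SNAIL families bind the E-box CACCTG.

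Expression was measured with Affymetrix Mouse Gene arrays, 1 per sample, as linear probe set intensities. Changes are log2 fold changes of the intensity plus 16, p53- Rb- Myc+ over p53-, with the standard error (SE) of limma and a p-value adjusted by Benjamini-Hochberg over 19938 genes. Rose and fell are used for genes with an adjusted p under 0.05. The added 16 makes the change of dim genes look smaller than it is. The median intensity over genes was 58.52 to 64.75 in p53- Rb- Myc+ arrays and 67.78 to 68.96 in p53- arrays. Arrays correlated across genes at r between 0.976 and 0.984 within p53- Rb- Myc+ and between 0.971 and 0.984 within p53-, and at r between 0.849 and 0.865 across both groups. On the first principal component, with 63.1% of the variance over all 15 arrays, p53- replicate 2 lay at -39.93 and the other p53- arrays at -29.72 and -26.24, and its array weight in limma was 0.481, against 1.33 and 1.75. Without it 2570 genes rose and 3040 fell, against 2657 and 3292 with it, and calls that changed without it are named beside the gene.

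The cell type in the labels was checked against epithelial markers, and the p53- Rb- Myc+ arrays went against it. Of 105 genes in 4 lists (luminal, basal, cell junctions and epithelial regulators), 56 (53.3%) lay below the lower quartile of all genes in each p53- Rb- Myc+ array, and 7 (6.67%) did in each p53- array. Over all genes these shares were 19.2% in p53- Rb- Myc+ arrays and 18.9% in p53- arrays. The low levels were not particular to the combined cells. Of the 105 genes, 69 lay below the lower quartile in each p53- Myc+ array and 3 in each p53- Rb- array. Over all 19938 genes these counts were 3450 in p53- Myc+ and 3959 in p53- Rb- arrays. The p53- Rb- Myc+ cells are called by their label here, without a claim that they were still epithelial. Such an array cannot tell fewer cells of a type from less RNA per cell.

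4 promoters are shown, each of a gene that passed and each with a motif of a factor family named above. Ldha belongs to the glycolysis and hypoxia list, which was mixed, with 10 of 27 that rose and 7 that fell. Motifs were not counted for that list. Each sequence is the RefSeq window of 250 bases before to 50 bases after a gene start (build GRCm38.p6), read 5′ to 3′ on the gene's strand. In the first 2, from the genes for the adhesion molecule EpCAM and for keratin 18, capitals mark CACCTG or its complement CAGGTG. Both genes fell. The Epcam window also holds the MYC E-box CACGTG, near its end and left in small letters.
Epcam (chr17:87635729-87636028, + strand): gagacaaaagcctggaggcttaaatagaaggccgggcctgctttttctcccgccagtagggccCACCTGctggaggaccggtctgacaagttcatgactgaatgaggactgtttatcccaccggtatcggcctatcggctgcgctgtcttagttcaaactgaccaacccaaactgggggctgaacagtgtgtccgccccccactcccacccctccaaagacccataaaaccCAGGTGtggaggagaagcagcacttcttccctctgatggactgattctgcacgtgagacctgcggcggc
Krt18 (chr15:102027966-102028265, + strand): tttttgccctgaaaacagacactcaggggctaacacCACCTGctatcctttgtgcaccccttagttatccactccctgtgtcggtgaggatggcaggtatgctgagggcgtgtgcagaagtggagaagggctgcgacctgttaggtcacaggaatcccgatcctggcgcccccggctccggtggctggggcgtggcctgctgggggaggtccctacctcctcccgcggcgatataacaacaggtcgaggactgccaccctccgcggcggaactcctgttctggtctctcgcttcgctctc
In the next, from the replication helicase gene Mcm3, capitals mark the E2F motifs TTTCCCGC (here as its complement) and TTTGGCGC. In the last, from the lactate dehydrogenase gene Ldha, they mark the MYC E-box CACGTG, which is its own complement. Both genes rose. Another Ldha window, not shown, holds CACCTG and no CACGTG.
Mcm3 (chr1:20820263-20820562, - strand): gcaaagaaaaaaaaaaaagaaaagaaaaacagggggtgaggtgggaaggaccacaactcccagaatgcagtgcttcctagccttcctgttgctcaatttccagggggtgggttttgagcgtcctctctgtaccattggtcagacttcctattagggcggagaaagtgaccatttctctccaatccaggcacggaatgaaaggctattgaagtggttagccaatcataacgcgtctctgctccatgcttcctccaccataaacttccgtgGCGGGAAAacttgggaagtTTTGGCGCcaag
Ldha (chr7:46845554-46845853, + strand): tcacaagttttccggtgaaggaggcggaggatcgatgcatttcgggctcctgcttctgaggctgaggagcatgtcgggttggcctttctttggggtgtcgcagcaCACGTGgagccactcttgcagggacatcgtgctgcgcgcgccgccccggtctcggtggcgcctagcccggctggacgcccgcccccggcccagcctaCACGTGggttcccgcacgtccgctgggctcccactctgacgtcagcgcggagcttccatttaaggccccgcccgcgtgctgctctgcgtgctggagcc

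These motifs were counted on both strands in 19177 such windows of 15614 of the genes tested, where a gene can have several windows. CACCTG stood in 19.6% of all windows, in 58.3% (21 of 36) of luminal, 70.8% (17 of 24) of junction, 41.2% (7 of 17) of basal and 50% (6 of 12) of epithelial regulator windows. The same E-box stood in 26.3% (5 of 19) of cholesterol, 8.16% (4 of 49) of S-phase, 5.88% (2 of 34 each) of mitosis and of nucleotide and polyamine, and 2.27% (1 of 44) of ribosome biogenesis windows. One of the E2F motifs stood in 2.21% of all windows and in 34.7% (17 of 49) of S-phase windows, but in 2.94% (1 of 34) of mitosis windows. CACGTG stood in 8.24% of all windows, in 18.2% (8 of 44) of ribosome biogenesis and in 17.6% (6 of 34) of nucleotide and polyamine windows, but also in 16.7% (4 of 24) of junction and 21.1% (4 of 19) of cholesterol windows. It stood in 11.8% (2 of 17) of basal, 8.33% (3 of 36) of luminal, 8.16% (4 of 49) of S-phase, 5.88% (2 of 34) of mitosis and 0 of 12 epithelial regulator windows. Over all genes, CACCTG stood in 13.9% of the windows of genes that rose and 22.8% of those that fell, and CACGTG in 12.7% of those that rose and 8.26% of those that fell. The S-phase list holds genes known as E2F targets, and the ribosome biogenesis and nucleotide lists hold genes known as MYC targets. The 4 epithelial lists hold genes of the kind that EMT factors are known to repress. All lists were chosen with earlier results of these data known. Motif shares in any of these lists therefore cannot be read as a result about the genes that moved. A match of letters is a description of a window and not a measured binding site. The 6-letter E-boxes CACGTG and CACCTG differ by a base and were counted separately.

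The targeted genes were read first. Rb1, which encodes Rb, had intensities of 19.98, 18.32 and 17.92 in p53- Rb- Myc+ arrays, against 146.9, 180.6 and 157.0 in p53- arrays. The groups did not overlap, and Rb1 fell (log2 fold change -2.35 ± 0.16, adjusted p = 9.45e-11). The mouse Myc probe set gave 87.14, 93.49 and 108.2 in p53- Rb- Myc+ arrays, against 841.3, 1046 and 901.5 in p53- arrays. Myc thus read lower in every array labelled Myc+ of this comparison (-3.07 ± 0.17, adjusted p = 1.4e-12). Between p53- Rb- Myc+ and p53- Myc+ arrays Myc did not pass. The sources used here do not say which part of either transcript the probes cover, so whether they read the deleted part of Rb1 or the MYC transgene was not tested. Trp53, the p53 gene itself, was not analysed here because no probe set named it alone.

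Of 19938 genes, 5949 (29.8%) passed the test, 2657 (13.3%) higher and 3292 (16.5%) lower in p53- Rb- Myc+ than in p53- arrays. At least 2-fold changes were more often downward, with 673 genes that rose and 1570 that fell by that much. The split of passing genes depended on the scaling. With the deposited scaling 44.7% of passing genes rose, with each array centred on its median 56.8% did (3565 rose, 2716 fell), and with quantile normalization 55% did. The median change over all genes was -0.02 as deposited and 0.10 under both other scalings. The 3 arrays of one group lay all above or all below those of the other for 8359 genes (41.9%).

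The luminal, basal, junction and regulator lists had the lowest medians of all lists read. Of 36 luminal genes 28 fell and 0 rose (median log2 change -2.26, against -0.02 over all genes), of 28 basal genes 23 fell and 1 rose (median -3.44), of 34 junction genes 29 fell and 0 rose (median -2.55, with 1 that rose under both other scalings), and of 20 epithelial regulators 18 fell and 0 rose (median -2.75). These counts, like those of the lists below, can be read against 13.3% of all genes that rose and 16.5% that fell. The basal gene that rose was Jag2, a Notch ligand (log2 fold change 0.77), named after its value was seen.

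Keratins form the intermediate filaments of epithelial cells. The luminal keratin gene Krt18 gave 21.98, 22.87 and 26.7 in p53- Rb- Myc+ arrays, against 4574, 5010 and 4424 in p53- arrays. Its partner Krt8 gave 26.81, 48.23 and 68.31 in p53- Rb- Myc+ arrays, against 3450, 3490 and 3647 in p53- arrays. Both were far below their p53- values in every p53- Rb- Myc+ array, though Krt8 was above the median gene (58.52) in replicate 3 (Krt18 -6.88 ± 0.17, adjusted p = 5.42e-18 and Krt8 -5.85 ± 0.32, adjusted p = 1.16e-12). The simple-epithelium keratin gene Krt7 gave 28.94, 33.34 and 32.93 in p53- Rb- Myc+ and 3462, 3395 and 3686 in p53- arrays (-6.21 ± 0.15, adjusted p = 5.42e-18). Among basal keratins, Krt5 gave 5.435, 12.18 and 12.09 in p53- Rb- Myc+ and 1444, 1769 and 1755 in p53- arrays (-6.02 ± 0.18, adjusted p = 4.71e-17). Krt14, its partner, gave 15.96, 29.69 and 19.49 in p53- Rb- Myc+ and 1714, 1680 and 1892 in p53- arrays (-5.57 ± 0.20, adjusted p = 1.08e-15). Keratins of both layers thus fell together, and none of these genes had overlapping groups. Krt17, a keratin of basal and wounded epithelium, fell as well (-5.85 ± 0.16, adjusted p = 1.83e-17).

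Adhesion and junction genes followed the keratins. Cdh1, which encodes E-cadherin, gave 13.8, 16.82 and 15.07 in p53- Rb- Myc+ arrays, against 1439, 1889 and 1432 in p53- arrays (-5.67 ± 0.16, adjusted p = 2.56e-17). Epcam gave 14.01, 8.88 and 11.81 in p53- Rb- Myc+ arrays, against 1672, 1615 and 1616 in p53- arrays (-5.91 ± 0.17, adjusted p = 2.54e-17). The tight junction claudin gene Cldn4 gave 6.678, 9.112 and 6.261 in p53- Rb- Myc+ arrays, against 1259, 1780 and 1101 in p53- arrays (-5.87 ± 0.17, adjusted p = 2.56e-17). For each of these 3 genes the highest array with all 3 changes was far below the lowest p53- array. The other claudin genes named, Cldn1 (-5.69 ± 0.18, adjusted p = 1.21e-16) and Cldn7 (-5.53 ± 0.16, adjusted p = 2.87e-17), and Dsp, which encodes the desmosome protein desmoplakin (-4.50 ± 0.17, adjusted p = 2.25e-15), fell too. Ocln, for occludin, fell by less (-2.25 ± 0.17, adjusted p = 5.49e-10). Jup, for plakoglobin, kept a measurable level, with 196.3, 243.3 and 171.4 in p53- Rb- Myc+ arrays against 1477, 1989 and 1407 in p53- arrays (-2.90 ± 0.18, adjusted p = 1.18e-11). Of the 34 junction genes, 5 did not pass, among them Tjp1, the gene of the scaffold ZO-1 (-0.29, adjusted p = 0.263), named after its value was seen.

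Transcription and splicing regulators of the epithelial state were lower in the same arrays. Grhl2, a transcription factor that keeps junction genes on, gave 18.59, 23.07 and 19.28 in p53- Rb- Myc+ arrays, against 242.9, 298.4 and 278.9 in p53- arrays (-2.99 ± 0.17, adjusted p = 3.51e-12). Esrp1, a splicing factor of epithelial isoforms, gave 49.01, 34.98 and 36.37 in p53- Rb- Myc+ arrays, against 936.1, 1173 and 1027 in p53- arrays (-4.24 ± 0.17, adjusted p = 4.86e-15). Gata3, the luminal lineage factor, fell (-3.93 ± 0.20, adjusted p = 2.52e-13), as did Trp63, the basal lineage factor (-3.23 ± 0.18, adjusted p = 1.88e-12), and Ovol1, a repressor of EMT genes (-1.03 ± 0.19, adjusted p = 0.000174). Klf5, a factor of proliferating epithelium, was an exception, with 538.0, 651.2 and 689.2 in p53- Rb- Myc+ arrays and 682.1, 629.1 and 656.3 in p53- arrays. Its groups overlapped and it did not pass (-0.07 ± 0.16, adjusted p = 0.806).

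**Figure D1:**
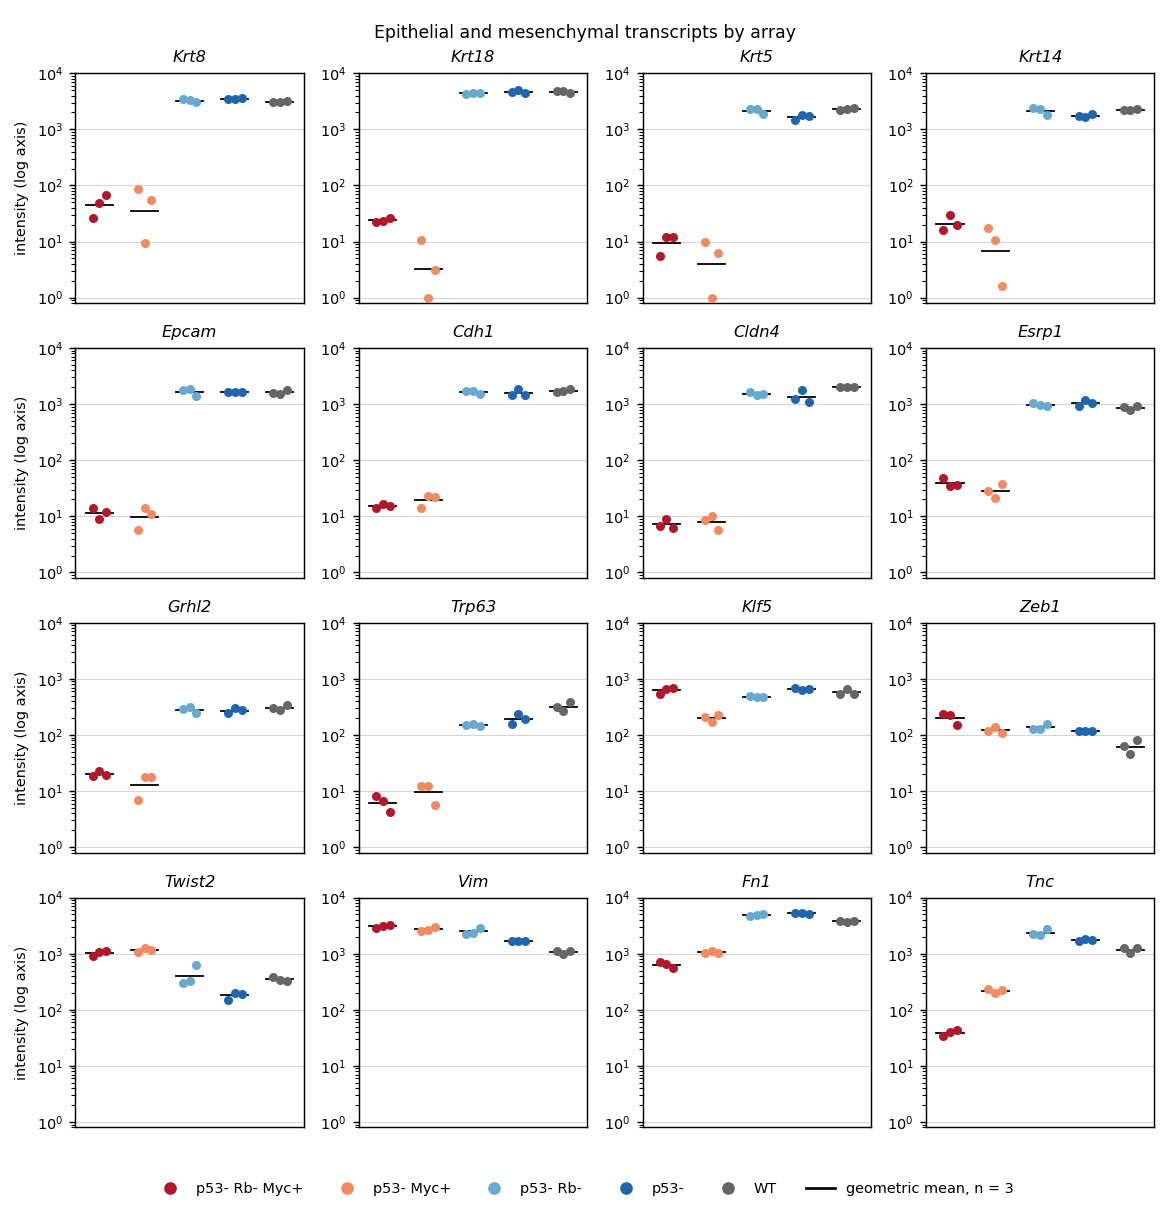
Intensity on a log axis for 16 epithelial and mesenchymal genes in each array, by group from p53- Rb- Myc+ on the left to WT on the right, with points for arrays and bars for the geometric mean (n = 3, values under 1 drawn at 1). Keratin, adhesion and regulator genes other than Klf5 sit low in both groups labelled Myc+, Vim and Twist2 sit above p53-, and Fn1 and Tnc sit below it.

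EMT factors moved the other way. Of 11 measured, 8 rose and 0 fell (median log2 change 0.88, with 13.3% of all genes rising), and Prrx2, Snai2 and Snai3 did not pass. Twist2 gave 913.5, 1055 and 1124 in p53- Rb- Myc+ arrays, against 152.0, 201.3 and 192.5 in p53- arrays (2.41 ± 0.21, adjusted p = 3.87e-09). Prrx1, a homeobox factor of mesenchyme, gave 1173, 1246 and 923.4 in p53- Rb- Myc+ arrays, against 380.0, 319.4 and 391.2 in p53- arrays (1.57 ± 0.16, adjusted p = 7.35e-08). Neither overlapped between groups. Twist1 (1.27 ± 0.17, adjusted p = 3.64e-06), Zeb2 (0.97 ± 0.18, adjusted p = 0.000163), Snai1 (0.88 ± 0.21, adjusted p = 0.00187) and Zeb1 (0.70 ± 0.19, adjusted p = 0.00551) rose by less. Snai2, the gene of SLUG, gave 291.3, 305.1 and 247.5 in p53- Rb- Myc+ and 230.0, 293.5 and 314.8 in p53- arrays, with overlapping groups (0.02 ± 0.17, adjusted p = 0.965).

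Mesenchymal genes did not follow as a group. Of 32, 13 rose and 12 fell (median 0.08), and with arrays centred 14 rose and 10 fell. Vim, for the filament protein vimentin, gave 2880, 3093 and 3275 in p53- Rb- Myc+ arrays, against 1677, 1717 and 1651 in p53- arrays (0.87 ± 0.15, adjusted p = 8.85e-05). Col3a1, for a fibrillar collagen, gave 1008, 1048 and 820.0 in p53- Rb- Myc+ arrays, against 275.6, 243.1 and 264.0 in p53- arrays (1.81 ± 0.16, adjusted p = 3.57e-09). Those 2 rose, while several matrix glycoproteins and N-cadherin fell. Fn1, for fibronectin, gave 698.1, 643.5 and 545.1 in p53- Rb- Myc+ arrays, against 5280, 5354 and 5164 in p53- arrays (-3.04 ± 0.14, adjusted p = 1.18e-13). Tnc, for tenascin-C, gave 33.89, 40.67 and 43.99 in p53- Rb- Myc+ arrays, against 1705, 1833 and 1786 in p53- arrays (-5.02 ± 0.16, adjusted p = 9.38e-17). Both Fn1 and Tnc were thus far lower in every p53- Rb- Myc+ array. Thbs1, for thrombospondin-1 (-3.03 ± 0.16, adjusted p = 1.06e-12), Thy1, a surface marker of stromal cells (-3.29 ± 0.20, adjusted p = 6.11e-12), and Cdh2, for N-cadherin (-0.67 ± 0.18, adjusted p = 0.00481), fell too.

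Markers of other cell types were read beside these results, against 13.3% of all genes that rose and 16.5% that fell. Of 20 fibroblast markers, which share members with the mesenchymal list, 9 rose and 6 fell (median 0.26), and their summed intensity was 5601 to 6447 in p53- Rb- Myc+ arrays and 4593 to 5251 in p53- arrays. The fibroblast receptor gene Pdgfra rose (1.09 ± 0.19, adjusted p = 9.59e-05), while the small proteoglycan genes Dcn (-1.0 ± 0.17, adjusted p = 4.53e-05) and Lum (-2.24 ± 0.17, adjusted p = 6.32e-10) fell. Their part in the epithelial and mesenchymal changes was not tested. For endothelial markers 8 of 19 fell and 0 rose, with a summed intensity of 709.6 to 775.1 in p53- Rb- Myc+ arrays and 1122 to 1204 in p53- arrays. For leukocyte markers 3 of 22 fell (Cd14, Cd68 and Lyz2) and 0 rose. The Lyz2 call ended in 5 of 15 alternatives, with adjusted p up to 0.221. Those included leaving out p53- replicate 2 (adjusted p = 0.118) or p53- Rb- Myc+ replicate 1 (adjusted p = 0.086). Leukocyte sums were 813.9 to 861.9 in p53- Rb- Myc+ arrays and 1055 to 1238 in p53- arrays. As deposited, no adipocyte, Schwann and neural, or pericyte and muscle marker rose, and 1 of 10, 5 of 13 and 2 of 14 fell. Under both other scalings 1 leukocyte and 1 Schwann and neural marker rose, and of the pericyte and muscle markers 2 rose and 1 fell. Under the same scalings 6 endothelial, 2 leukocyte and 4 Schwann and neural markers fell. Adipocyte marker sums were 469.4 to 500.1 in p53- Rb- Myc+ and 623.9 to 720.2 in p53- arrays. Schwann and neural sums were 603.3 to 757.8 in p53- Rb- Myc+ and 1103 to 1218 in p53- arrays. Pericyte and muscle sums were 602.3 to 637.4 in p53- Rb- Myc+ and 996.6 to 1286 in p53- arrays. Ptprc, the pan-leukocyte CD45 gene, gave 52.05, 28.29 and 31.59 in p53- Rb- Myc+ and 54.47, 22.65 and 52.18 in p53- arrays. Pecam1, the endothelial CD31 gene, gave 2.977, 3.594 and 1.186 in p53- Rb- Myc+ and 20.03, 28.31 and 26.43 in p53- arrays. Both genes were below the median gene in all 6 arrays. Other markers were not dim in p53- arrays, among them Tnnt2, for cardiac troponin T, with 12.25 to 18.87 in p53- Rb- Myc+ and 509.8 to 657.0 in p53- arrays, chosen after its values were seen.

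Besides the lists, the 12 genes with the highest change were named by a rule on size, level and non-overlapping arrays. Ifitm1, an interferon-inducible membrane protein gene, gave 778.9, 937.0 and 810.0 in p53- Rb- Myc+ arrays, against 24.5, 18.23 and 25.9 in p53- arrays (4.47 ± 0.19, adjusted p = 1.96e-14). Prg4, for the lubricating proteoglycan lubricin, gave 853.3, 895.2 and 1031 in p53- Rb- Myc+ arrays, against 33.93, 20.41 and 33.55 in p53- arrays (4.39 ± 0.19, adjusted p = 1.83e-14). Both were dim in all p53- arrays and bright in all p53- Rb- Myc+ arrays. Wt1, the Wilms tumour transcription factor gene, gave 516.1, 509.1 and 444.9 in p53- Rb- Myc+ arrays, against 36.73, 23.01 and 34.56 in p53- arrays (3.42 ± 0.20, adjusted p = 5.92e-12). Aldh1a1, a retinaldehyde dehydrogenase gene, gave 409.2, 468.5 and 418.3 in p53- Rb- Myc+ arrays, against 10.82, 14.56 and 19.75 in p53- arrays (3.86 ± 0.17, adjusted p = 2.52e-14). The mesodermal homeobox gene Meox2 (3.78 ± 0.21, adjusted p = 1.43e-12), the transcription factor gene Ebf3 (3.29 ± 0.14, adjusted p = 2.73e-14), the matrix gene Emilin2 (3.70 ± 0.27, adjusted p = 2.38e-10) and the adhesion receptor gene Vcam1 (3.46 ± 0.21, adjusted p = 5.92e-12) rose next. Secreted products filled the rest. They were the growth factor gene Gdf10 (3.35 ± 0.20, adjusted p = 5.32e-12), the Wnt modulator gene Sfrp2 (3.29 ± 0.20, adjusted p = 1.02e-11), the acute-phase gene Saa3 (3.24 ± 0.25, adjusted p = 4.1e-10) and Igfbp6, for a binding protein of insulin-like growth factors (3.21 ± 0.17, adjusted p = 1.17e-12). The 12 lowest included Wfdc2 of the luminal list, for an epithelial secreted protein (-6.51 ± 0.19, adjusted p = 2.56e-17). Those outside the epithelial lists were Clu, for the chaperone clusterin (-6.72 ± 0.18, adjusted p = 1.69e-17), Csn3, for the milk protein kappa-casein (-6.01 ± 0.19, adjusted p = 7.97e-17) and Dynap (-5.87 ± 0.18, adjusted p = 6.2e-17).

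Growth genes known as MYC targets rose together. Of 42 ribosome biogenesis genes 36 rose and 0 fell (median log2 change 0.66), and of 30 genes of nucleotide, one-carbon and polyamine synthesis 21 rose and 1 fell (median 0.81), where 13.3% of all genes rose. Srm, for spermidine synthase, gave 1949, 2042 and 2112 in p53- Rb- Myc+ arrays, against 518.0, 650.4 and 536.4 in p53- arrays (1.82 ± 0.18, adjusted p = 2.15e-08). Cad, for the first enzymes of pyrimidine synthesis, gave 661.0, 657.1 and 526.6 in p53- Rb- Myc+ arrays, against 174.7, 260.4 and 187.3 in p53- arrays (1.51 ± 0.17, adjusted p = 3.13e-07). These genes did not overlap between groups. Mthfd1l (1.66 ± 0.15, adjusted p = 9.83e-09) and Shmt2 (0.79 ± 0.15, adjusted p = 0.000254), of mitochondrial one-carbon metabolism, and Prps1, which makes the ribose donor of nucleotides (1.34 ± 0.16, adjusted p = 5.86e-07), rose as well. The gene that fell was Odc1, for ornithine decarboxylase, the enzyme one step before Srm, with 1548, 1449 and 1419 in p53- Rb- Myc+ arrays and 2376, 2017 and 2688 in p53- arrays (-0.67 ± 0.16, adjusted p = 0.00179).

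In the nucleolus, Fbl, for the rRNA methyltransferase fibrillarin, gave 2187, 2432 and 2442 in p53- Rb- Myc+ arrays, against 1043, 1153 and 1053 in p53- arrays (1.11 ± 0.14, adjusted p = 1.96e-06). Polr1b, for a core subunit of RNA polymerase I, gave 302.3, 302.2 and 286.2 in p53- Rb- Myc+ arrays, against 96.68, 132.1 and 109.5 in p53- arrays (1.29 ± 0.15, adjusted p = 3.54e-07). Every p53- Rb- Myc+ array lay above every p53- array for both. Nat10, for an RNA acetyltransferase (1.37 ± 0.15, adjusted p = 2.32e-07), and the helicase gene Ddx18 (1.25 ± 0.15, adjusted p = 5.44e-07) rose alike. Ncl, for nucleolin, was higher in each p53- Rb- Myc+ array (1599, 1831 and 1821) than in each p53- array (1399, 1131 and 1461) but did not pass (0.40 ± 0.17, adjusted p = 0.0811), though it did with arrays centred (adjusted p = 0.0252) or quantile normalized (adjusted p = 0.0388). Among amino acid transporters 7 of 18 rose and 4 fell. The glutamine carrier gene Slc1a5 rose (1.73 ± 0.18, adjusted p = 7.34e-08), and the other glutamine carrier named, Slc38a1, fell (-2.68 ± 0.19, adjusted p = 1.25e-10).

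Cholesterol synthesis genes rose too, 13 of 20 with 0 that fell (median 0.59). Mvd, for mevalonate diphosphate decarboxylase, gave 460.6, 479.1 and 482.9 in p53- Rb- Myc+ arrays, against 139.0, 202.8 and 142.0 in p53- arrays (1.49 ± 0.16, adjusted p = 7.22e-08). Stard4, for a sterol carrier, gave 360.8, 380.8 and 358.7 in p53- Rb- Myc+ arrays, against 87.29, 137.1 and 122.7 in p53- arrays (1.56 ± 0.17, adjusted p = 1.63e-07). Both were higher in every p53- Rb- Myc+ array. Hmgcs1, for an early enzyme of the pathway, did not pass (0.28 ± 0.20, adjusted p = 0.349). Glycolysis and hypoxia genes were mixed, with 10 of 27 that rose and 7 that fell. Ldha rose (0.71 ± 0.15, adjusted p = 0.000837), as did Pdk1, for a pyruvate dehydrogenase kinase (1.67 ± 0.17, adjusted p = 3e-08). The hypoxia-induced genes Adm, for adrenomedullin (-2.96 ± 0.15, adjusted p = 5.95e-13), and Car9, for a carbonic anhydrase (-0.66 ± 0.17, adjusted p = 0.00532), fell, as did the lactate exporter gene Slc16a3 (-2.86 ± 0.20, adjusted p = 1.43e-10).

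**Figure D2:**
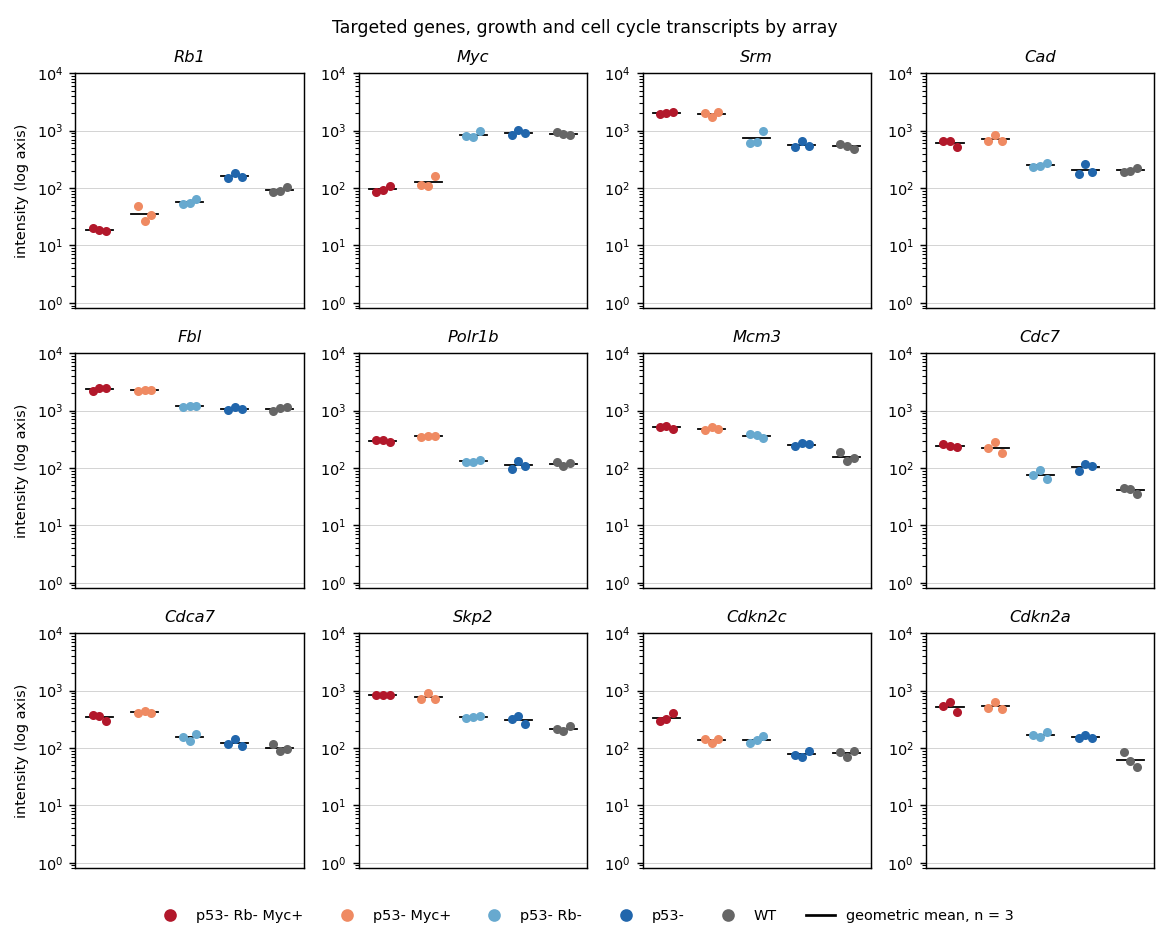
Intensity on a log axis for Rb1, Myc and 10 growth and cell cycle genes in each array, by group from p53- Rb- Myc+ on the left to WT on the right, with points for arrays and bars for the geometric mean (n = 3). Rb1 and Myc are lowest in p53- Rb- Myc+ arrays, though Myc did not pass between p53- Rb- Myc+ and p53- Myc+ arrays. Srm, Cad, Fbl, Polr1b, Skp2 and Cdkn2a are at similar heights in both groups labelled Myc+ and above p53-.

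In S phase, 31 of 45 genes known as E2F targets rose and 1 fell (median log2 change 0.58). Mcm3, a subunit of the replicative helicase, gave 520.2, 536.3 and 475.3 in p53- Rb- Myc+ arrays, against 239.9, 269.3 and 260.0 in p53- arrays (0.95 ± 0.15, adjusted p = 3.8e-05). Cdc7, for the kinase that fires replication origins, gave 261.4, 246.4 and 229.4 in p53- Rb- Myc+ arrays, against 89.26, 118.9 and 109.7 in p53- arrays (1.11 ± 0.18, adjusted p = 3.03e-05). Both genes were higher in each p53- Rb- Myc+ array. Cdca7, a chromatin factor gene induced by MYC and E2F (1.36 ± 0.17, adjusted p = 6.68e-07), Mcm10 (0.96 ± 0.16, adjusted p = 5.04e-05), Mcm2 (0.70 ± 0.16, adjusted p = 0.00122) and Ccne1, for cyclin E1 (0.75 ± 0.19, adjusted p = 0.00403), also rose. Rrm2, for the small subunit of ribonucleotide reductase, varied among p53- arrays (696.6, 1676 and 622.9) around its p53- Rb- Myc+ values (1094, 1202 and 953.2) and did not pass (0.26 ± 0.27, adjusted p = 0.56), though it did without p53- replicate 2 (0.70, adjusted p = 0.0206). E2f1 itself did not pass (-0.10 ± 0.19, adjusted p = 0.781). The S-phase gene that fell was Ezh2, for a histone methyltransferase (-0.77 ± 0.22, adjusted p = 0.00938), whose call ended when p53- replicate 3 (adjusted p = 0.0743) or p53- Rb- Myc+ replicate 3 (adjusted p = 0.0649) was left out.

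Of 39 mitotic genes 14 rose and 1, the spindle gene Prc1, fell (median 0.29), the Prc1 call ending without p53- replicate 3 (adjusted p = 0.0518). Bub1b, for a spindle checkpoint kinase, gave 681.0, 650.2 and 658.4 in p53- Rb- Myc+ arrays, against 295.9, 325.4 and 303.7 in p53- arrays (1.07 ± 0.18, adjusted p = 4.56e-05). Cenpa, for the centromeric histone (1.03 ± 0.16, adjusted p = 2.17e-05), and Cdc20, for an activator of the anaphase complex (0.87 ± 0.15, adjusted p = 6.95e-05), rose. Cdk1, for the mitotic kinase, gave 1135, 1065 and 1045 in p53- Rb- Myc+ and 1040, 876.0 and 1091 in p53- arrays, with overlapping groups (0.11 ± 0.16, adjusted p = 0.676). Top2a, for topoisomerase II alpha, did not pass either (0.10 ± 0.15, adjusted p = 0.709). Both groups were harvested while proliferating, per the labels.

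Among 29 genes of the Rb pathway (pocket proteins, E2F factors, cyclins and CDK inhibitors), 12 rose and 3 fell. Cdkn2c, for the CDK4 and CDK6 inhibitor p18, gave 294.9, 316.0 and 400.2 in p53- Rb- Myc+ arrays, against 76.01, 70.85 and 87.42 in p53- arrays (1.90 ± 0.16, adjusted p = 3.7e-09). Cdkn2a, for p16 and p19Arf, gave 541.0, 626.9 and 428.2 in p53- Rb- Myc+ arrays, against 151.5, 169.0 and 148.4 in p53- arrays (1.65 ± 0.19, adjusted p = 2.31e-07). Both inhibitor genes were higher in every p53- Rb- Myc+ array. Skp2, for the ligase subunit that removes p27, rose (1.40 ± 0.16, adjusted p = 2.25e-07). Besides Rb1, the genes that fell were Ccnd1, for cyclin D1 (-1.80 ± 0.18, adjusted p = 2.61e-08), and Cdkn2b, for p15 (-1.04). Ccnd1 gave 714.6, 793.9 and 725.2 in p53- Rb- Myc+ arrays, against 2433, 3487 and 2163 in p53- arrays. Rbl1, the gene of the related pocket protein p107, did not pass (-0.12 ± 0.16, adjusted p = 0.658). In the MYC network, 2 of 13 genes rose, Max (0.68 ± 0.17, adjusted p = 0.00417) and Mxi1, a MAX partner that opposes MYC (1.03 ± 0.18, adjusted p = 7.53e-05). Over all genes 13.3% rose and 16.5% fell. Besides Myc, Mxd1 (-0.77 ± 0.18, adjusted p = 0.00189), Mxd4 and Mycl fell, a split of 2 to 4 that was 3 to 3 under both other scalings. The Mxd4 call ended in 5 of 6 fits that left out 1 array, all but the fit without p53- Rb- Myc+ replicate 3, with adjusted p up to 0.195.

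Targets of p53 differed between these groups although both lacked p53 by their labels. Of 33 genes 18 fell and 2, Sesn1 and Fas, rose (median -0.49), and with arrays centred 15 fell and 4 rose. Pmaip1, for the death-promoting protein NOXA, gave 8.112, 4.669 and 5.382 in p53- Rb- Myc+ arrays, against 175.9, 160.6 and 222.2 in p53- arrays (-3.19 ± 0.22, adjusted p = 6.23e-11). Trp53inp1, for a stress-response protein, gave 15.95, 17.33 and 12.41 in p53- Rb- Myc+ arrays, against 192.0, 206.5 and 200.1 in p53- arrays (-2.79 ± 0.22, adjusted p = 6.51e-10). Neither gene overlapped between groups. Perp, also a desmosome gene of the epithelial lists (-4.75 ± 0.15, adjusted p = 7.97e-17), Plk2, for a stress-induced kinase (-2.0 ± 0.15, adjusted p = 4.1e-10), Ccng1, for cyclin G1 (-1.32 ± 0.16, adjusted p = 6.8e-07), and Mdm2, for the ligase that degrades p53 (-1.23 ± 0.19, adjusted p = 1.58e-05), fell. Of 25 apoptosis genes 9 fell and 2, Bad and Bid, rose, where 16.5% of all genes fell and 13.3% rose. Casp1, for the inflammatory caspase (-2.81 ± 0.22, adjusted p = 5.15e-10), Casp8, for the initiator of death receptors (-1.49 ± 0.15, adjusted p = 6.12e-08), and Bcl2l1, for the survival protein BCL-XL (-1.13 ± 0.17, adjusted p = 1.87e-05), fell.

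The series title names invasion, and genes of matrix breakdown and attachment were read for it. Most genes in the list of extracellular proteases and their inhibitors fell, 21 of 31. Another 5 rose, Adam9, Mmp19, Mmp2, Plat and Hpse, the last for heparanase, which is not a protease. Mmp9, for gelatinase B, gave 5.134, 6.753 and 7.568 in p53- Rb- Myc+ arrays, against 923.2, 1123 and 930.2 in p53- arrays (-5.48 ± 0.16, adjusted p = 5.29e-17). Mmp3, for stromelysin 1, gave 37.05, 24.64 and 30.28 in p53- Rb- Myc+ arrays, against 969.1, 598.6 and 883.5 in p53- arrays (-4.14 ± 0.18, adjusted p = 1.65e-14). Neither gene overlapped between groups. Mmp14, for the membrane protease that activates gelatinase A (-2.09 ± 0.15, adjusted p = 1.05e-10), and Plau, for urokinase (-2.72 ± 0.25, adjusted p = 6.86e-09), fell by less, and Mmp2, for gelatinase A, rose (0.64 ± 0.17, adjusted p = 0.00536). The inhibitor gene Timp3 fell as well, at 13.76, 14.82 and 13.2 in p53- Rb- Myc+ arrays against 1351, 1895 and 1271 in p53- arrays (-5.65 ± 0.19, adjusted p = 4.83e-16). Serpinb5, for the serpin family member maspin, fell too (-4.66 ± 0.15, adjusted p = 1.21e-16). Of 27 genes in the integrin and laminin list 17 fell and 5 rose. Itgb4, of the hemidesmosome integrin (-4.19 ± 0.17, adjusted p = 1.07e-14), Lamb3, for a chain of laminin 332 (-5.04 ± 0.21, adjusted p = 8.96e-15), and Itga2, for a collagen receptor chain (-5.25 ± 0.18, adjusted p = 7.15e-16), fell. Itga5, for the fibronectin receptor chain, did not pass (0.16 ± 0.16, adjusted p = 0.54). The 5 that rose, Itgb7, Lamb2, Lamc1 and the nidogen genes Nid1 and Nid2, had log2 fold changes from 0.55 (Lamc1) to 3.14 (Itgb7). The Lamc1 call ended when p53- replicate 1 (adjusted p = 0.0698) or p53- Rb- Myc+ replicate 1 (adjusted p = 0.119) was left out.

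Ligands and receptors of the EGF family were read in cells whose medium held EGF. Of 15 genes 10 fell and 1, Nrg2, rose (median -1.22). The Nrg2 call ended without p53- replicate 3 (adjusted p = 0.108), p53- Rb- Myc+ replicate 2 (adjusted p = 0.0698) or replicate 3 (adjusted p = 0.0971). Hbegf gave 117.1, 98.05 and 108.5 in p53- Rb- Myc+ arrays, against 691.0, 828.2 and 668.4 in p53- arrays (-2.59 ± 0.17, adjusted p = 3.66e-11). The other ligand genes Epgn (-3.00 ± 0.20, adjusted p = 3.16e-11), Nrg1 (-2.15 ± 0.16, adjusted p = 2.68e-10) and Tgfa (-1.82 ± 0.18, adjusted p = 3.85e-08) fell, and so did the receptor genes Erbb3 (-2.21 ± 0.19, adjusted p = 3.28e-09) and Egfr (-1.79 ± 0.17, adjusted p = 1.92e-08). The receptor gene Erbb2 did not pass (-0.08 ± 0.19, adjusted p = 0.828). In the TGF-beta and BMP family 23 of 31 fell and 2, Id1 and Tgfbr3, rose (median -1.05). Inhba, for the activin A chain, gave 39.28, 53.26 and 53.78 in p53- Rb- Myc+ arrays, against 2067, 2072 and 2261 in p53- arrays (-5.06 ± 0.21, adjusted p = 1.21e-14). Fst, for its inhibitor follistatin (-4.49 ± 0.17, adjusted p = 2.24e-15), and Ccn2, a matrix-associated target gene of TGF-beta (-2.47 ± 0.19, adjusted p = 5.4e-10), fell, and Id1, a target of BMP, rose (1.22 ± 0.16, adjusted p = 2.09e-06). Of 33 Wnt genes 10 fell and 4 rose (Fzd1, Fzd2, Sfrp2 and Tcf7l1), where 16.5% of all genes fell and 13.3% rose. The ligand genes Wnt7b (-4.07 ± 0.16, adjusted p = 6.42e-15) and Wnt5b (-2.90 ± 0.15, adjusted p = 3.35e-13) and the receptor gene Fzd6 (-2.72 ± 0.20, adjusted p = 2.25e-10) fell.

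Interferon, antigen presentation and inflammatory genes fell in larger numbers than they rose. Of 29 interferon-induced genes 21 fell and 0 rose (median -1.23), 21 of the 29 being below the median level of all genes, and 1 rose under both other scalings. Ddx58, for the RNA sensor RIG-I, gave 40.9, 52.29 and 47.5 in p53- Rb- Myc+ arrays, against 307.5, 373.4 and 335.1 in p53- arrays (-2.50 ± 0.20, adjusted p = 9.31e-10). Zbp1, for a nucleic acid sensor of cell death (-3.04 ± 0.22, adjusted p = 1.71e-10), Ifih1, for the sensor MDA5 (-1.90 ± 0.18, adjusted p = 1.51e-08), and Irf7, for a master factor of interferon genes (-1.37 ± 0.19, adjusted p = 6.7e-06), fell. Ifitm1, the gene with the highest change, is also interferon-inducible and lay outside that list. For antigen presentation 10 of 19 fell and 2, H2-Aa and Psmb10, rose. B2m, the light chain of class I molecules, gave 1339, 1514 and 1488 in p53- Rb- Myc+ arrays, against 2432, 2401 and 2159 in p53- arrays (-0.68 ± 0.15, adjusted p = 0.00108). Among cytokines and inflammatory genes 21 of 33 fell and 5 rose (Ccl2, Ccl28, Ccl7, Il33 and Saa3), and the Ccl28 call ended in 5 of 6 fits that left out 1 array, all but the fit without p53- Rb- Myc+ replicate 2, with adjusted p up to 0.138. Il1a gave 10.66, 2.489 and 3.596 in p53- Rb- Myc+ arrays, against 822.9, 557.5 and 827.1 in p53- arrays (-5.12 ± 0.21, adjusted p = 8.11e-15). Il33, its family member, gave 340.8, 269.6 and 248.8 in p53- Rb- Myc+ arrays, against 47.59, 38.21 and 37.88 in p53- arrays (2.39 ± 0.20, adjusted p = 1.28e-09). These 2 alarmin genes thus moved in opposite directions in all arrays. Ptgs2, for cyclooxygenase 2 (-4.07 ± 0.15, adjusted p = 2.19e-15), and Lif, for leukaemia inhibitory factor (-4.36 ± 0.18, adjusted p = 8.27e-15), fell, and Ccl2, a monocyte attractant gene, rose (0.88 ± 0.15, adjusted p = 5.51e-05).

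Genes of position and development were mixed. Of 30 Hox genes 15 rose and 1, Hoxb4, fell (median 0.52), 21 of the 30 being below the median level of all genes. The Hoxb4 call ended when p53- replicate 3 (adjusted p = 0.0515) or p53- Rb- Myc+ replicate 1 (adjusted p = 0.0583) was left out. Hoxc10 gave 278.5, 291.5 and 341.1 in p53- Rb- Myc+ arrays, against 39.82, 55.67 and 43.34 in p53- arrays (2.36 ± 0.17, adjusted p = 1.35e-10). Hoxc8 (2.04 ± 0.19, adjusted p = 1.37e-08), Hoxc6 (2.09 ± 0.17, adjusted p = 1.4e-09) and Hoxa9 (1.76 ± 0.18, adjusted p = 7.29e-08) rose too, and Hoxd8 did not pass (0.37 ± 0.19, adjusted p = 0.168). Of 20 embryonic and imprinted genes 4 rose and 4 fell, where 13.3% of all genes rose and 16.5% fell. Peg10, an imprinted retrotransposon-derived gene, gave 1219, 1301 and 1013 in p53- Rb- Myc+ arrays, against 117.7, 152.3 and 109.0 in p53- arrays (3.07 ± 0.24, adjusted p = 8.59e-10). Hmga2, a chromatin gene of embryonic cells (-1.59 ± 0.17, adjusted p = 8.03e-08), and the imprinted genes Mest (-2.15 ± 0.18, adjusted p = 2.62e-09) and Peg3 (-1.73 ± 0.21, adjusted p = 6.18e-07) fell. Of 21 Polycomb and DNA methylation genes 6 rose, with Dnmt1, for the maintenance methyltransferase (0.77 ± 0.16, adjusted p = 0.00056), and 3 fell. Of 12 milk genes 7 fell and 1, Xdh, rose, and Csn2, for beta-casein, did not pass (0.22 ± 0.17, adjusted p = 0.383).

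MicroRNA genes were read from probe sets named for them, which measure a precursor or host transcript and not the mature form. Of 300, 4 (Mir17, Mir18, Mir19a and Mir455) rose and 14 fell, 6% against 29.8% of all genes. That balance depended on the scaling, since 11 rose and 10 fell with arrays centred and 14 rose and 11 fell with quantile normalization. As deposited, 2 rose and 16 fell when p53- replicate 2 was left out. Of the 300 probe sets 247 lay below the median level. Mature sequences of 5 genes of a cluster on chromosome 14 are given, with that of Mir31. MYC and E2F are known to induce that cluster, shown because 3 of the 4 genes that rose belong to it. RefSeq sequences (build GRCm38.p6) follow 5′ to 3′ with the seed, bases 2 to 8, in capitals, grouped by shared seed. Mir19a, Mir20a and Mir19b-1 were added after their values were seen, as further genes of that cluster, which is not shown in full.
mmu-miR-17-5p: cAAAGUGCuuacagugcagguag
mmu-miR-20a-5p: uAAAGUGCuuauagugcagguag
mmu-miR-18a-5p: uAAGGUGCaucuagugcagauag
mmu-miR-19a-3p: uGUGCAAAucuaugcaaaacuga
mmu-miR-19b-3p: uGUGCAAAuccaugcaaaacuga
mmu-miR-31-5p: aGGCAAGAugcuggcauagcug
The probe set of Mir17, whose mature form shares its seed with miR-20a-5p, gave 128.4, 163.5 and 136.3 in p53- Rb- Myc+ arrays, against 39.99, 70.97 and 44.64 in p53- arrays (1.25 ± 0.23, adjusted p = 0.000133). Mir18 gave 48.9, 63.4 and 67.67 in p53- Rb- Myc+ arrays, against 14.9, 30.44 and 12.82 in p53- arrays (1.13 ± 0.18, adjusted p = 3.48e-05). Neither overlapped between groups. Mir19a, dim in every array, rose with 8.793, 36.68 and 8.056 in p53- Rb- Myc+ and 4.879, 4.967 and 2.527 in p53- arrays (0.65 ± 0.24, adjusted p = 0.0428). Its change was 0.28 (adjusted p = 0.38) without p53- Rb- Myc+ replicate 2, and the call also ended without any 1 of the p53- arrays (adjusted p up to 0.128). The Mir455 call ended in 5 of 6 fits that left out 1 array, all but the fit without p53- replicate 1 (adjusted p up to 0.169). Mir20a (0.12 ± 0.21, adjusted p = 0.744) and Mir19b-1 (0.05 ± 0.20, adjusted p = 0.89) did not pass, so probe sets of 1 cluster differed. Mir31, whose mature form is known to restrain metastasis in breast cancer models, gave 27.68, 18.07 and 21.11 in p53- Rb- Myc+ arrays, against 53.3, 41.79 and 58.86 in p53- arrays (-0.81 ± 0.22, adjusted p = 0.00558).

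**Figure D3:**
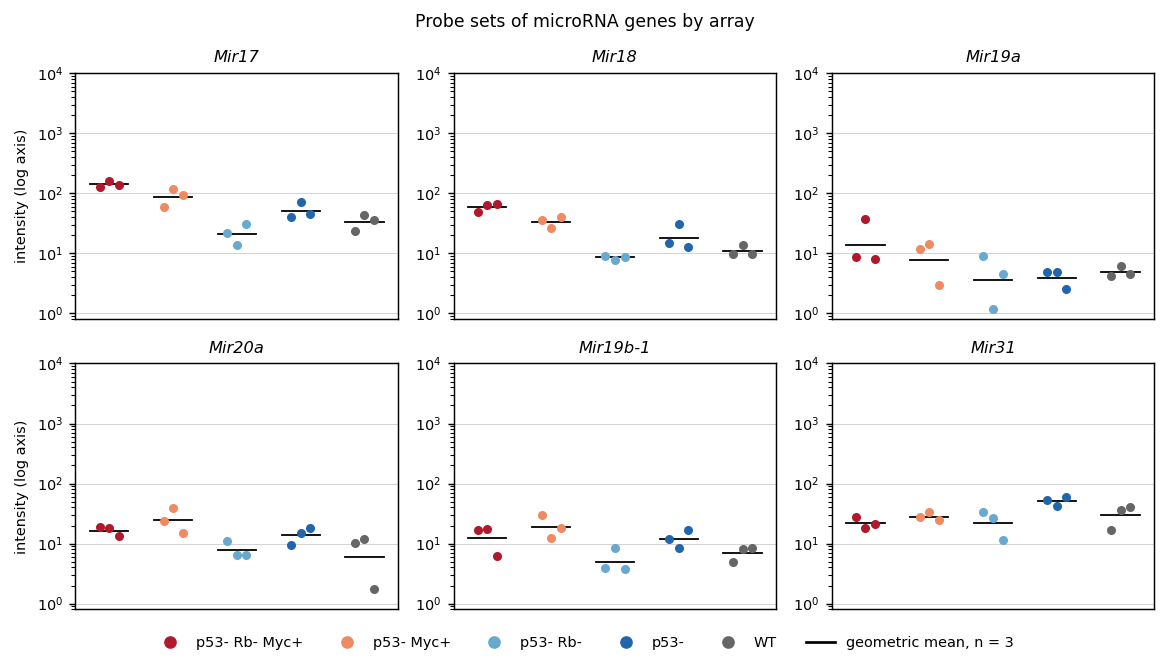
Intensity on a log axis for probe sets of 5 genes of the Mir17 cluster and of Mir31 in each array, by group from p53- Rb- Myc+ on the left to WT on the right, with points for arrays and bars for the geometric mean (n = 3). Mir17 and Mir18 are highest in p53- Rb- Myc+ arrays, Mir19a, Mir20a and Mir19b-1 are dim in all groups, and Mir31 is highest in p53- arrays.

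Because both changes came together, the arrays with either change alone were set beside them. Against p53- Myc+ arrays, 935 genes (4.69%) passed with 656 (3.29%) higher and 279 (1.4%) lower in p53- Rb- Myc+, and against p53- Rb- arrays 7246 (36.3%) passed with 3518 (17.6%) higher and 3728 (18.7%) lower. With arrays centred the split was 498 higher and 393 lower against p53- Myc+ and 4606 higher and 3464 lower against p53- Rb-, and with quantile normalization 552 and 376 against p53- Myc+ and 4404 and 3475 against p53- Rb-. These comparisons share the p53- Rb- Myc+ arrays. Across genes, p53- Rb- Myc+ arrays correlated with p53- Myc+ arrays at r between 0.946 and 0.968, and with p53- Rb- arrays at r between 0.826 and 0.857. The 105 epithelial genes, 86 of which fell against p53-, included 17 above and 1 below the p53- Myc+ level (median log2 difference 0.21). Krt18 was among those above, dim in both groups, at 21.98, 22.87 and 26.7 in p53- Rb- Myc+ arrays and 10.69, 0.4713 and 3.175 in p53- Myc+ arrays (log2 difference 0.97 ± 0.17, adjusted p = 0.000516). Jup was also above, at 196.3, 243.3 and 171.4 in p53- Rb- Myc+ and 35.22, 59.07 and 50.04 in p53- Myc+ arrays (1.78 ± 0.18, adjusted p = 3.36e-07). Of the S-phase, mitosis, ribosome biogenesis and nucleotide lists, 0 of 156 genes passed against p53- Myc+ arrays in limma's test, and 11 had an unadjusted p under 0.05. The count was also 0 with the replicate numbers as a block and with quantile normalization, and with arrays centred 1 ribosome biogenesis gene was lower. Cdkn2c did pass, at 294.9, 316.0 and 400.2 in p53- Rb- Myc+ and 144.5, 120.7 and 141.1 in p53- Myc+ arrays (1.21 ± 0.16, adjusted p = 2.67e-05). Against p53- Rb- arrays, 36 of 42 ribosome biogenesis and 20 of 30 nucleotide genes were higher and 0 lower. So were 18 of 45 S-phase and 18 of 39 mitosis genes, with 0 lower. In that comparison 29 of 36 luminal, 23 of 28 basal, 29 of 34 junction and 18 of 20 regulator genes were lower. In those lists 1 basal gene was higher.

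An interaction term asked whether the combined change was the sum, on the log2 scale, of the changes with either label alone. It is the change from adding both labels minus the change with Rb- alone and the change with Myc+ alone. For 2715 genes (13.6%) it differed from 0, with 1749 (8.77%) above the sum and 966 (4.85%) below it (median over all genes 0.13). The balance depended on the scaling, with 64.4% of passing genes above the sum as deposited, 45.2% with arrays centred (1193 above, 1444 below) and 53.8% with quantile normalization (1316 above, 1132 below). The count above the sum was 1096 when p53- replicate 3 was left out, 1135 when p53- Rb- replicate 3 was and 1110 when p53- Rb- Myc+ replicate 2 was. Of 32 mesenchymal genes 24 lay below the sum and 1 above, and of 29 interferon-induced genes 12 lay above and 0 below. With arrays centred the mesenchymal counts were the same and 8 interferon-induced genes lay above. Pdgfra, for example, gave 247.6, 258.1 and 171.6 in p53- Rb- Myc+, 705.3, 636.3 and 510.2 in p53- Myc+, 154.5, 195.0 and 215.0 in p53- Rb- and 90.33, 94.86 and 102.0 in p53- arrays (interaction -2.26 ± 0.27, adjusted p = 6.94e-06).

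The 6 genes furthest above the sum were low with the Myc+ label alone and not with both labels. Efemp1, for a matrix protein of the fibulin family, gave 1147, 1021 and 879.0 in p53- Rb- Myc+, 10.96, 14.85 and 0.02226 in p53- Myc+, 125.0, 148.8 and 148.5 in p53- Rb- and 97.73, 141.3 and 139.9 in p53- arrays (interaction 5.28 ± 0.29, adjusted p = 1.05e-10). Igfbp4, for a binding protein of insulin-like growth factors, gave 697.8, 745.2 and 783.3 in p53- Rb- Myc+, 32.32, 31.88 and 34.14 in p53- Myc+, 310.7, 252.2 and 401.2 in p53- Rb- and 316.7, 374.8 and 229.3 in p53- arrays (interaction 3.89 ± 0.27, adjusted p = 2.32e-09). Both were highest with all 3 changes and lowest in p53- Myc+ arrays. Slco2a1, for the prostaglandin transporter, stayed below p53- with both labels, at 450.8, 407.5 and 554.7 in p53- Rb- Myc+ arrays, 21.58, 32.36 and 26.44 in p53- Myc+ arrays and 1593, 2162 and 1559 in p53- arrays (interaction 3.83 ± 0.25, adjusted p = 1.15e-09). The adhesion receptor gene Adgrg2 (interaction 3.82 ± 0.27, adjusted p = 2.5e-09), the epidermal gene Sbsn (3.40 ± 0.25, adjusted p = 7.13e-09) and Socs2, for an inhibitor of cytokine signalling (3.22 ± 0.22, adjusted p = 2.5e-09), complete the set.

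Among the 6 furthest below the sum, the course over the groups differed. Slc43a3, for a nucleobase transporter, gave 10.97, 21.91 and 17.39 in p53- Rb- Myc+, 608.5, 690.6 and 570.3 in p53- Myc+, 1207, 1195 and 1069 in p53- Rb- and 550.6, 573.0 and 581.4 in p53- arrays (interaction -5.30 ± 0.23, adjusted p = 1.66e-12). It was low with both labels and in no group with one of them. Klhl13, for a ubiquitin ligase adaptor, gave 27.6, 31.87 and 36.62 in p53- Rb- Myc+, 794.7, 672.6 and 667.0 in p53- Myc+, 51.08, 57.61 and 82.51 in p53- Rb- and 23.19, 50.97 and 30.74 in p53- arrays (interaction -4.58 ± 0.28, adjusted p = 4.77e-10), being high with Myc+ alone. Muc1, for a luminal mucin, gave 11.47, 9.768 and 9.478 in p53- Rb- Myc+, 9.698, 4.258 and 12.41 in p53- Myc+, 528.8, 484.7 and 477.0 in p53- Rb- and 19.39, 24.5 and 12.8 in p53- arrays (interaction -3.79 ± 0.27, adjusted p = 3.3e-09), being high with Rb- alone. The matrix gene Mfap4 (-5.72 ± 0.33, adjusted p = 2.57e-10) was higher with either label than with both or neither. Rarres2, for the attractant chemerin (-3.81 ± 0.31, adjusted p = 3.22e-08), and Lrrc32, for a cell-surface carrier of latent TGF-beta (-3.54 ± 0.34, adjusted p = 2.68e-07), were highest with Rb- alone.

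**Figure D4:**
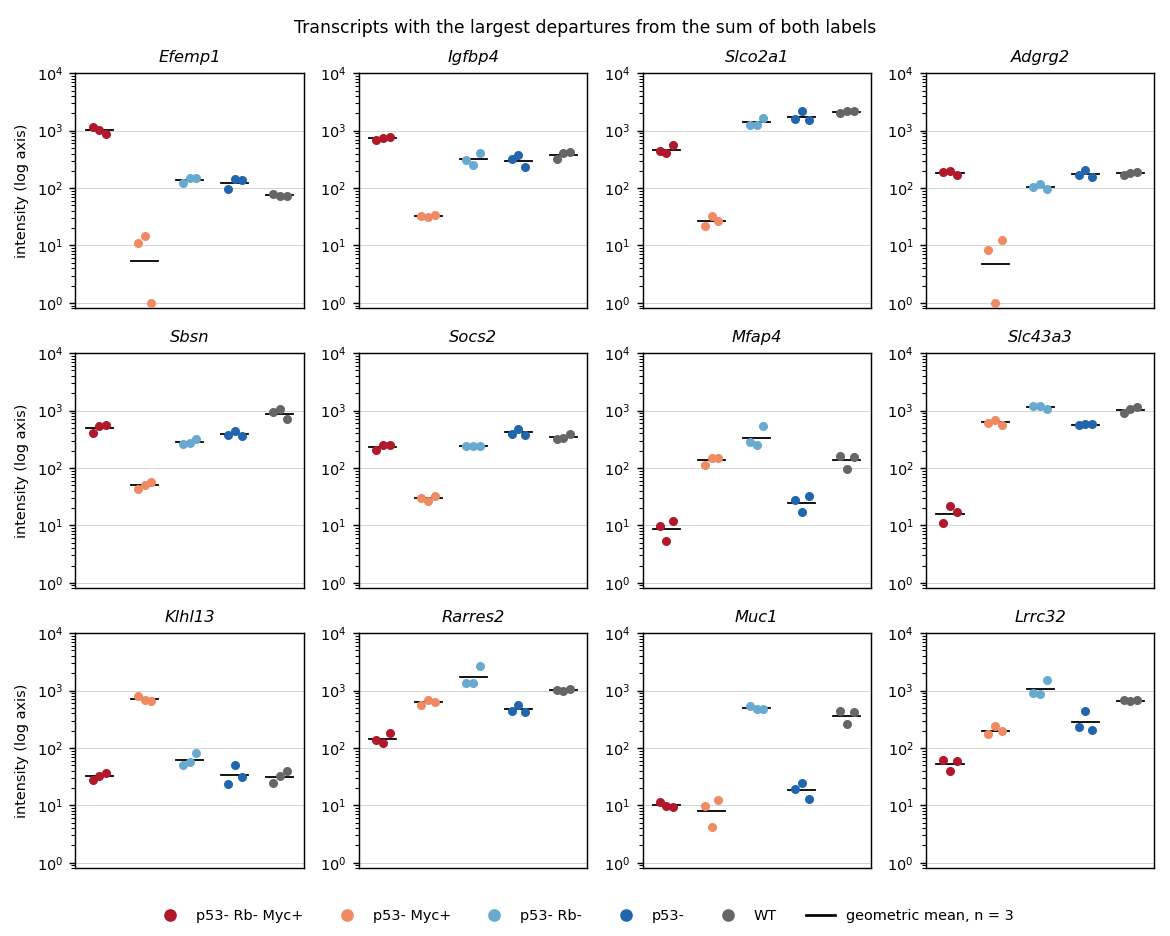
Intensity on a log axis for the 6 genes furthest above and the 6 furthest below the sum of both labels' changes, in each array, by group from p53- Rb- Myc+ on the left to WT on the right, with points for arrays and bars for the geometric mean (n = 3, values under 1 drawn at 1). The genes from Efemp1 to Socs2 are lowest in p53- Myc+ arrays, and Slc43a3 is low in p53- Rb- Myc+ arrays only.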

How the data were processed

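RNA was labelled with the WT-Ovation Pico kit, per the labels' protocols, and the deposited values, per the submitters' processing notes made with Affymetrix Expression Console 1.1, are linear probe set intensities from 4.11e-05 to 8348.053. How probe sets were summarised, and whether arrays were scaled to each other, was not given in the sources used here. Of 35556 probe sets, 21789 had exactly 1 gene symbol in the platform annotation, 1621 had several and 12146 were not listed. Symbols of 21698 probe sets matched a mouse gene table (GRCm38.p6) by Entrez number and 0 changed. Where a gene had several probe sets (999 of 19938 genes), the one brightest on average across 15 arrays was taken. No array carries detection calls, so dim genes have a level with no stated floor, and the number of arrays limits the precision.

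limma 3.58.1 in R 4.3.3 (lmFit, eBayes) was fitted to log2 of the intensity plus 16, with means of 5 groups, 10 residual and 11.78 prior degrees of freedom. Tests were 2-sided, with Benjamini-Hochberg adjustment over all genes and a threshold of 0.05. The code was tested on simulated data. The members, the 35 gene lists (881 of 938 entries measured) and the rule for named genes were chosen with earlier results of these data known. That rule names Rb1 and Myc, the 12 highest and 12 lowest changes that passed, with non-overlapping arrays and a level not under the median, the 6 highest and 6 lowest interaction terms with such a level, key members and the 4 smallest p of each list, and up to 8 passing microRNA genes. Members that spell out a count of 5 or fewer were named after their values were seen. Same-number arrays of p53- Rb- Myc+ and p53- Myc+ shared part of their deviations from the group means (r = 0.102, 0.192 and 0.379). The main fit had no block, and their numbers were taken as pairs only in alternative fits with a replicate block. The values alone gave that pairing. It was not seen against p53- arrays (r = -0.075, -0.022 and -0.128) or in every number against p53- Rb- arrays (r = 0.037, 0.056 and 0.218). Alternatives changed the added constant, a filter on dim genes, scaling between arrays, the arrays fitted, the replicate block, the variance model, array weights and the probe set per gene, and left out each array in turn.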

Additional observations from a re-analysis of the deposited data

Results flagged for a closer look

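For these genes named in the text, the change with the Myc+ label differed between cells with and without the Rb- label, by the interaction term of the limma fit (log2, adjusted p under 0.05 over all genes, as for 13.6% of all genes). Terms above 0 were 5.28 for Efemp1, 3.89 for Igfbp4, 3.83 for Slco2a1, 3.82 for Adgrg2, 3.40 for Sbsn, 3.22 for Socs2 and 2.79 for Ifitm1. Next came 2.67 for Prg4, 2.41 for Itgb7, 2.09 for Peg3, 1.99 for Klf5, 1.73 for Jag2, 1.61 for Wt1 and 1.59 for Tjp1. Then followed 1.55 for Pmaip1, 1.5 for Id1, 1.43 for Il33, 1.43 for Il1a, 1.43 for Mir17, 1.43 for Plau and 1.38 for Jup. Smaller were 1.29 for Itga2, 1.28 for Trp53inp1, 1.22 for Ifih1, 1.1 for Mir18, 1.06 for Krt18, 1.02 for Thy1 and 1.01 for Stard4. Below these lay 0.94 for Cldn1, 0.94 for Epgn, 0.92 for Bid, 0.91 for Fst, 0.88 for Mir455, 0.87 for Casp8 and 0.86 for Dynap. Further terms above 0 were 0.84 for Ncl, 0.83 for Irf7, 0.81 for Plk2, 0.74 for Sesn1 and 0.70 for Rb1.

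Terms below 0 were -5.72 for Mfap4, -5.30 for Slc43a3, -4.58 for Klhl13, -3.81 for Rarres2, -3.79 for Muc1, -3.54 for Lrrc32 and -3.16 for Mmp3. These were followed by -2.63 for Mmp2, -2.50 for Tnc, -2.26 for Pdgfra, -2.17 for Slc38a1, -2.05 for Sfrp2, -1.97 for Saa3 and -1.94 for Car9. Nearer to 0 were -1.90 for Hoxd8, -1.63 for Adm, -1.53 for Slc16a3, -1.44 for Thbs1, -1.34 for Fzd2, -1.31 for Snai1 and -1.31 for Vcam1. After them came -1.30 for Itga5, -1.29 for Mmp19, -1.28 for Acta2, -1.25 for Twist2, -1.22 for Lyz2, -1.21 for Gdf10 and -1.12 for Tgfbr3. Further terms below 0 were -1.11 for Hoxc6, -1.06 for Dcn, -1.05 for Mmp14, -0.97 for Prrx1, -0.92 for Pecam1, -0.90 for Col3a1 and -0.82 for Hoxc10. Closest to 0 were -0.82 for Pdk1, -0.77 for Fzd1, -0.77 for Mxi1 and -0.63 for Fn1.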

How the results depend on the processing

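The main counts, 2657 genes that rose and 3292 that fell against p53- arrays, stayed within 1.5 times under 16 alternatives each, and leaving out 1 array gave 2071 to 2570 that rose and 2802 to 3040 that fell. With 1 added before the logarithm 2389 rose and 2992 fell, and with 64 added 2876 rose and 3360 fell. Of 187 named genes that passed, 176 kept the call in every alternative, 11 lost it in at least 1, and 0 of the 211 named genes reversed as a called change. Genes above the sum of both labels numbered 1096 among genes at or above the median level, where fewer genes were tested, and 3499 with array weights, and genes below the sum 1898 with array weights. The cause of the rise with array weights was not tested. Leaving out 1 array gave 1096 to 1922 above and 664 to 1311 below the sum. Against p53- Rb- arrays, 6079 genes rose with array weights, and leaving out 1 array gave 2472 to 3357 that rose and 3324 to 3468 that fell. Against p53- Myc+ arrays, leaving out 1 array gave 451 to 628 that rose and 196 to 239 that fell. With a replicate block 2662 genes rose and 3324 fell against p53- arrays, 653 rose and 277 fell against p53- Myc+ arrays, 3591 rose and 3753 fell against p53- Rb- arrays, and 1823 lay above and 954 below the sum. A block fitted with only the arrays compared, added after seeing the data, gave 661 and 292 against p53- Myc+ arrays and changed 1 named call, that of Emilin2 (adjusted p = 0.0301). The block changed no other named call. The Gdf10 interaction ended with 64 added (adjusted p = 0.12). Dim genes limit these results, since their fold changes shrink with a larger added constant.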

Other observations

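Acta2, for smooth muscle actin and chosen after its values were seen, belongs to the basal list and did not follow it, at 1668, 1874 and 1879 in p53- Rb- Myc+ arrays and 1403, 2081 and 1296 in p53- arrays (log2 fold change 0.21 ± 0.18, adjusted p = 0.459 in limma).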
